A study of Mus musculus with 4 samples.

Results

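Alternative start sites (ASSs) of mouse skeletal muscle that were both contained in an annotated transcript and broad were examined in AMPKα2 knockout (KO) and wild-type (WT) animals. A site was selected on 2 properties of the deposited table, namely the class code c (contained in a transcript) on a primary chromosome and a width of 100 bp or more from its first to its last read end. This gave 1004 broad sites in 691 genes, out of 15569 transcript-contained sites on primary chromosomes and 42207 sites in all. Width was measured on the same reads as the counts, so widths and read numbers of these sites are given as descriptions and were not tested.

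Whole transcriptome start site sequencing (WTSS-seq) was applied to gastrocnemius muscle of mice about 8 weeks old, with 2 animals per group. KO animals were AMPKα2-/- on the C57BL/6 strain, with the catalytic domain of the α2 subunit of the AMP-activated protein kinase abolished, and WT animals were their controls. AMPKα2 is encoded by Prkaa2 and is a catalytic subunit of a kinase that responds to low cellular energy. The comparison asked whether the level or the use of these sites differed between the genotypes.

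In WTSS-seq the RNA is depleted of ribosomal RNA, and a switching primer is added at the 5′ end during reverse transcription, so that a read marks where an RNA molecule or a fragment of it begins. Transcription of a gene can start within a few bases, which is typical of promoters with a TATA box, or over a wide stretch, which is typical of promoters rich in CpG dinucleotides. A read end inside an exon may also come from an RNA that was cut or capped again after transcription. Muscle holds unusually long messages, among them those of titin and nebulin, and these offer many exons in which read ends can be collected.

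The RefSeq promoter table held windows under the same symbol for 437 of the 691 genes. Of its annotated starts, 13 in 12 genes lay inside a broad site, and 5 of these are shown because they let the extent of a site be read against a promoter. The sequences are from RefSeq (GRCm38) and run 5′ to 3′ on the strand of the gene from 50 bases before the annotated start, 80 bases in all. Capitals mark the bases that lie inside the broad site. The windows are chr6:42286635-42286714 (+) for Clcn1, chr19:5802643-5802722 (-) for Malat1, chr9:67049184-67049263 (-) for Tpm1, chr1:143777228-143777307 (+) for Uchl5 and chr17:53479184-53479263 (+) for Rab5a.
Clcn1: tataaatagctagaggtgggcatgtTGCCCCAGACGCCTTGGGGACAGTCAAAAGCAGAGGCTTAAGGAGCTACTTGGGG
Malat1: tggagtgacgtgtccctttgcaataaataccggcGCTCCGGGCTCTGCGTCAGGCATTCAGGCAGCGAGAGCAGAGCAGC
Tpm1: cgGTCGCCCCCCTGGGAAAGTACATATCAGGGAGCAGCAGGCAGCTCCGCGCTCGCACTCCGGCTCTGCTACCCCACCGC
Uchl5: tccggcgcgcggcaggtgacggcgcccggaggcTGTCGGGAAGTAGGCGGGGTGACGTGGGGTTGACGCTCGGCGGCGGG
Rab5a: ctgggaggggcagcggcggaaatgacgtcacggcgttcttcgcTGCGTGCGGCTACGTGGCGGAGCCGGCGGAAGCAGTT

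In Clcn1, which encodes the chloride channel of the muscle membrane, the site began 25 bases before the annotated start, ended 115 bases after it, and was most read 23 bases after it. It held 1267 and 1835 reads in the KO libraries and 629 and 982 reads in the WT libraries, which was 98.4% of the reads of the gene. In Tpm1, which encodes a tropomyosin of the thin filament, the site began 48 bases before a start and held 9.90% of the reads of the gene, so most of its reads were elsewhere. In Uchl5, which encodes a deubiquitinating enzyme, the broad site was the only site of the gene, with 44 and 39 reads in KO against 23 and 40 reads in WT.

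Over the 13 windows, each from 250 bases before to 50 bases after the annotated start, the median GC content was 57.3%, against 52.7% over 32851 annotated windows, and the median number of CpG dinucleotides was 12 against 7. The letters TATAA on the strand of the gene, which were searched between 45 and 15 bases before the start, were found in 0 of the 13 windows and in 3.89% of all windows. In Clcn1 and Klhl33 the same letters lay 50 and 49 bases before the annotated start, just outside that stretch. By the gene models, which also cover genes without a window, the 5′ end of the gene lay inside a broad site in 17 genes, of which 10 are pseudogenes and 1 is Neat1. The counts of letters describe the windows only, and few broad sites contributed to them.

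Library totals ran from 1300069 to 2900279 reads, with the KO libraries the deeper ones. The DESeq2 size factors were 1.52 and 1.16 in KO against 0.737 and 0.866 in WT. Reads of single sites and genes, here, above and below, are not scaled for this. More reads in KO therefore need not mean a higher level. Broad sites held 408115 and 357909 reads in KO against 198546 and 242178 reads in WT. This was 14.1% and 15.5% of all reads in KO against 15.3% and 15.4% in WT, with means of 14.8% ± 1.04 and 15.4% ± 0.116 (SD, n = 2), so the groups overlapped. Counts of the replicates differed by more than sampling noise over the broad sites, with a chi-square statistic per degree of freedom of 51.7 in KO and 30.2 in WT, and each library was therefore kept as 1 sample. Prkaa2, the targeted gene, held 0 broad sites and its widest site measured 86 bp. Its reads over all sites were 244 and 209 in KO against 109 and 149 in WT, and they gave no check of the genotype labels here. Of 14 skeletal muscle markers, 13 had reads in all 4 libraries, while Pygm was at 0 in each.

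The broad sites were from 100 to 1050 bp wide, with a median of 140 bp, and 565 of them measured under 150 bp. The median total over the 4 libraries was 135 reads per broad site, against 18 reads in the 14565 narrower transcript-contained sites. Reads were found in all 4 libraries for 988 broad sites (98.4%), against 52.5% of the narrower ones. Wider sites held more reads, with a Spearman rank correlation of 0.58 across the 1004 sites. This correlation is a description across sites of the same libraries, since more reads also widen the stretch that they cover. The median total was 86 reads at 100 to 149 bp, 362 reads at 200 to 299 bp and 1778 reads at 400 bp or more.

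**Figure D1:**
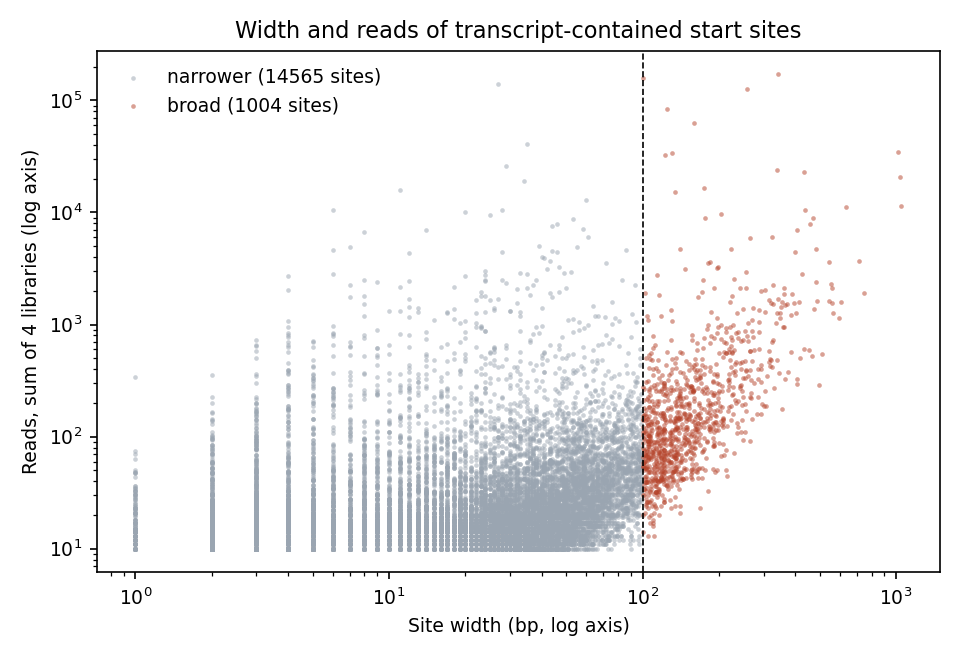
Width in bp (log axis) against reads summed over the 4 libraries (log axis), 1 point per transcript-contained site, with the 100 bp threshold dashed. The 1004 broad sites had a median of 135 reads and the 14565 narrower sites a median of 18 reads.

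The threshold fell within a continuous range of widths. At exactly 100 bp there were 17 sites, with a median of 87 reads, and the most read were those of Gm15564 with 157494 reads and Gbas with 278 reads. At 99 bp, just outside, there were 27 sites with a median of 51 reads. The most read of these were in Kera, a keratan sulphate proteoglycan, with 127 and 37 reads in KO against 30 and 46 in WT, and in Ppp3r1, a regulatory subunit of calcineurin, with 65 and 47 reads in KO against 27 and 62 in WT.

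Broad sites were seldom isolated. The gap from a broad site to the nearest other site on its strand had a median of 48 bp, against 411 bp for narrower sites, and the smallest gap was 24 bp in both. Among the class codes with more than 1 site, 26.5% of the 1292 sites that overlapped an exon and an intron measured 100 bp or more. This share was 6.91% of the 738 sites with another exonic overlap, 6.45% of the transcript-contained sites, 1.09% to 2.09% of the antisense, downstream and intergenic sites, and 0.496% of the 20962 intronic sites. The most read base lay at a median of 53.7% of the way along a broad site, near its middle.

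Along the gene, broad sites were found mostly toward the 3′ end. A RefSeq gene model was matched for 990 of the 1004 sites, and their median position was 81.0% of the gene length from the 5′ end, against 85.3% for narrower transcript-contained sites and 58.1% for all sites. The last 20% of the gene held 503 of them (50.8%), and 281 lay within 1000 bp of the annotated 3′ end. Within 300 bp of the annotated 5′ end there were 83 broad sites (8.38%), against 8.60% of the narrower ones. Of the 83, 46 were in pseudogenes (40% of the broad pseudogene sites), 33 in protein coding genes (3.89%) and 4 in long noncoding RNAs. Protein coding genes held 849 broad sites, pseudogenes 115 and long noncoding RNAs 26. In pseudogenes the median position was 35.4%, and in protein coding genes it was 86.1%.

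**Figure D2:**
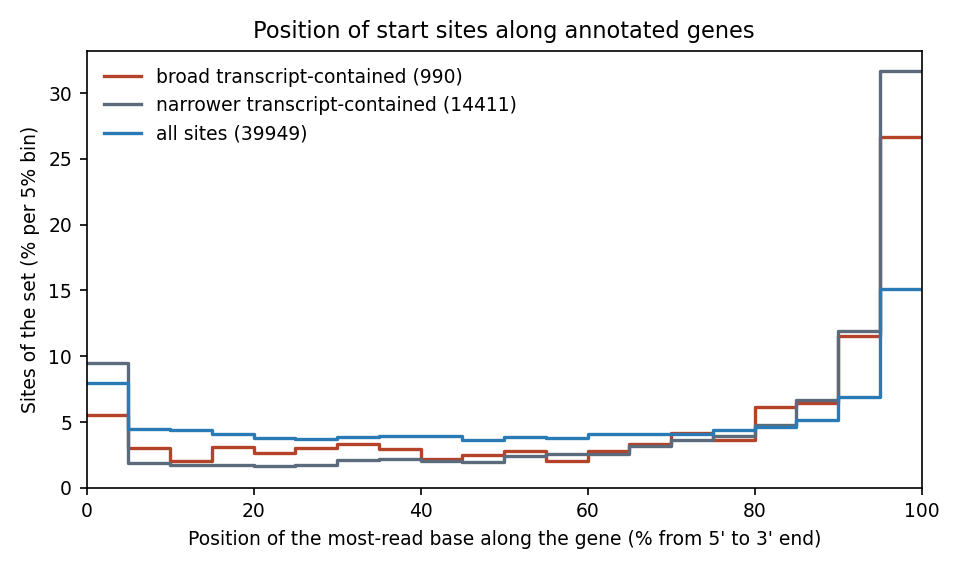
Share of sites per 5% bin of gene length (0% is the annotated 5′ end), for broad transcript-contained sites, narrower ones and all sites with a gene model. The medians were 81.0%, 85.3% and 58.1%.

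A broad site held a median of 21.98% of all reads of its gene, and 324 of the 1004 sites held more than 50%. It was the only site of the gene in 63 cases. Of the 691 genes, 587 had 1 broad site and 69 had 2.

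The reads were concentrated in few sites, since the 10 most read broad sites held 62.1% of the reads of all broad sites. The site of Lars2 (chr9:123461800-123462142), which encodes the mitochondrial leucyl-tRNA synthetase, held 47330 and 47494 reads in KO against 30076 and 45457 in WT. Scaled, this was 31061 and 40987 normalized counts in KO against 40813 and 52507 in WT. The site of Gm15564 (chr16:35981739-35981838) held 45959 and 54550 reads in KO against 26712 and 30273 in WT. Both sites held over 99% of the reads of their gene in every library, so that a single stretch held nearly all reads counted for the gene. Whether these reads come from transcripts of that gene was not tested.

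Igfbp5, a binding protein of insulin-like growth factors that muscle secretes, had its site at chr1:72860890-72861148 in the 3′ part of the gene, with 51790 and 33486 reads in KO against 21294 and 19744 in WT. Next came the site of Atf1, a transcription factor that binds cAMP response elements, with 34293 and 20492 reads in KO against 11295 and 17541 in WT. In Naa50, a catalytic subunit for acetylation of protein N termini, the site held 32329 and 15287 reads in KO against 5860 and 9252 in WT. After scaling, the KO libraries of Naa50 (21216 and 13193 normalized counts) were above both WT libraries (7952 and 10687), but its DESeq2 adjusted p was 0.745.

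The other sites among the 10 most read were in Malat1, Ube2l3, Gm4834, Car3 and Mylk4. In Ube2l3, a ubiquitin-conjugating enzyme, the KO libraries had 9588 and 10013 reads and the WT libraries 9179 and 5317. Scaled, this was 6292 and 8641 normalized counts in KO against 12456 and 6142 in WT. Car3, the carbonic anhydrase abundant in slow muscle and fat, had 6952 and 8772 reads in KO against 6412 and 1740 in WT at a site 87 bp from the 3′ end of the gene. This was 21.4% and 20.7% of the reads of Car3 in KO against 35.2% and 10.2% in WT, so that the WT libraries differed from each other by more than the groups did. In Gm4834, a pseudogene, the replicates were as far apart, with 15766 and 4666 reads in KO against 11186 and 1031 in WT.

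The widest site, of 1050 bp, was in Hrc, which encodes the histidine-rich calcium-binding protein of the sarcoplasmic reticulum. It lay at chr7:45335497-45336546 and held 3787 and 3003 reads in KO against 1443 and 3181 in WT, between 81.7% and 86.5% of the reads of the gene. Malat1, a nuclear long noncoding RNA, had the next 2 in width. Its site of 1013 bp held 11318 and 11756 reads in KO against 3816 and 8058 in WT and included the annotated start. That of 1035 bp lay just downstream with 7237 and 4980 reads in KO against 4237 and 4406 in WT. Scaled, the site of 1035 bp had 4749 and 4298 normalized counts in KO against 5750 and 5089 in WT. The log2 fold changes were 0.28 for the site of 1013 bp and -0.26 for that of 1035 bp. A site of 748 bp in Ttn and a site of 714 bp in Xirp2 followed, with 1919 and 3705 reads in total.

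Several genes were covered by broad sites many times over. Ttn, which encodes titin, the elastic protein that spans the sarcomere from Z-disc to M-line, had 92 broad sites among its 556 sites, and they covered 20064 bp in total. Together they held 45.2% and 44.0% of the reads of Ttn in KO against 45.8% and 44.5% in WT, with means of 44.6% ± 0.811 and 45.2% ± 0.911 (SD, n = 2). Their most read member (chr2:76712796-76713429) had 4982 and 1895 reads in KO against 1928 and 2468 in WT. Another, at chr2:76848900-76849102, had 3518 and 3411 reads in KO against 1289 and 1432 in WT, and that at chr2:76710181-76710639 had 3078 and 2467 in KO against 969 and 1425 in WT. The share held by the 92 sites differed by less than 2 percentage points among the 4 libraries, while their level ran from 15266 to 19136 summed normalized counts.

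Ahnak, a very large scaffold protein under the cell membrane, had 29 broad sites, all between 13665 and 28887 bp from its annotated 5′ end. Malat1 and Xirp2 had 11 each, Cmya5 had 10, and Ccng1, Srl and Neat1 had 7. Neb, Plec and Klhl31 had 6, and Zfp106, Golga4, H19 and Mia3 had 5. In Malat1 the broad sites covered 54.3% of the gene and held 97.3% to 98.2% of its reads, whereas in Neb, which encodes nebulin of the thin filament, they covered 0.373% of the gene and held 2.73% to 5.48% of its reads.

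**Figure D3:**
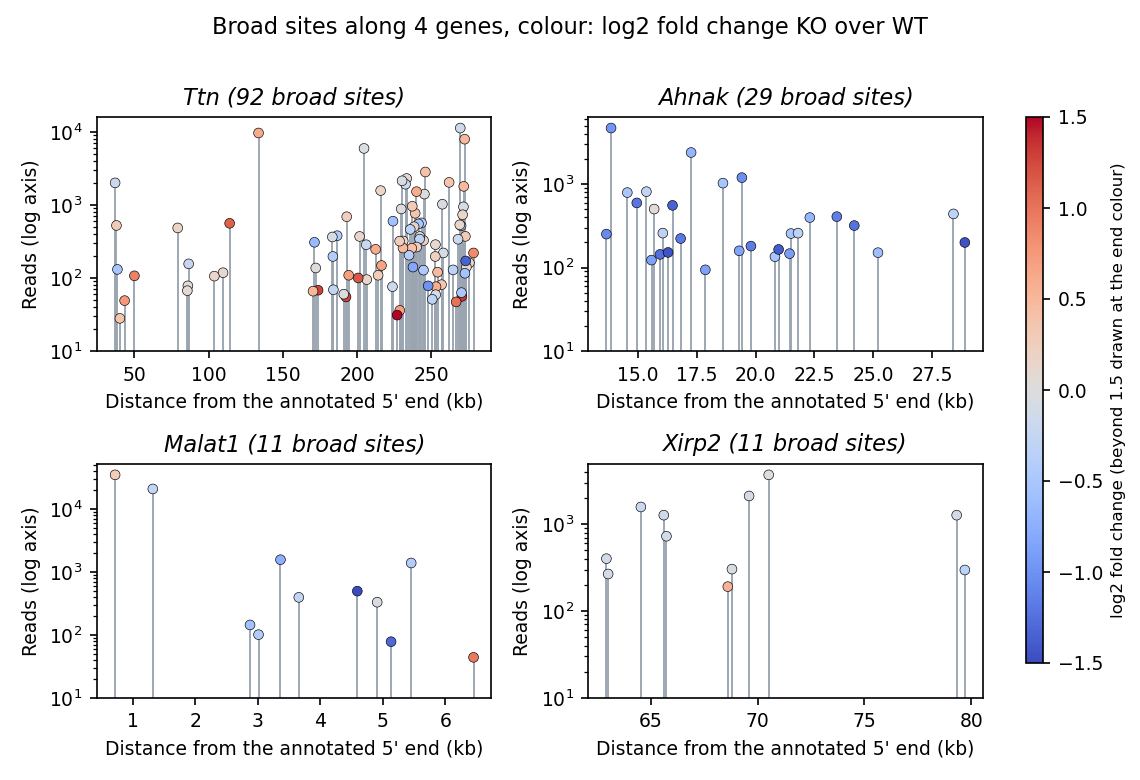
Broad sites of Ttn, Ahnak, Malat1 and Xirp2 by distance from the annotated 5′ end (kb) and reads summed over the 4 libraries (log axis), coloured by the DESeq2 log2 fold change of KO over WT. Ahnak is nearly all blue, with 28 of 29 sites lower in KO, while Ttn is mixed, with 52 of 89 tested sites higher (35 of 89 when scaled by totals).

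The level of each site in KO and in WT was next compared with DESeq2, in a fit over all sites. Of the 1004 broad sites, 936 were tested and 68 had too few reads. At an adjusted p under 0.1, 6 broad sites were higher in KO and 2 were lower. In this comparison 2.33% of all 11112 tested sites were called higher and 0.882% lower, so both shares among the broad sites (6 of 936 and 2 of 936) were below the background. When libraries were scaled by totals without mitochondrial and ribosomal RNA, 5 were higher and 3 lower. The quasi-likelihood test of edgeR called 0 broad sites in either direction, with 10 higher and 15 lower at an unadjusted p under 0.05, and DESeq2 had 10 and 9 at that level. With 2 animals per group an exact permutation test cannot give a p below 0.333. The fitted p-values rest on these animals only, and both programs estimate the spread of a site partly from the other sites.

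The fold changes of broad sites were small. Their median log2 fold change was -0.22 over 936 sites, with 35.0% of the sites higher in KO, while over all tested sites the median was 0.10 and 53.5% were higher. Over the tested narrower transcript-contained sites the median was -0.08 and 46.8% were higher. Over those narrower sites with 68 or more reads it was 0.11 and 54.4% were higher. How far the median of the broad sites lay below 0 depended on the libraries. Without WT replicate 2 the median was -0.01 and 464 of the 936 sites were higher. Among the sites tested in each leave-out fit, the broad median stayed below that of all sites. It was -0.02 against 0.14 without WT replicate 2 and -0.41 against 0.23 without WT replicate 1. Without KO replicate 1 it was -0.12 against 0.02, and without KO replicate 2 it was -0.36 against 0.21. The normalized counts of both KO libraries lay on the same side of both WT libraries in 362 of the 936 sites (38.7%), against 40.4% of all tested sites. Replicates of a broad site differed by a median of 1.41-fold in KO and 1.55-fold in WT, while narrower sites with 68 or more reads differed by 1.69-fold and 1.73-fold.

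**Figure D4:**
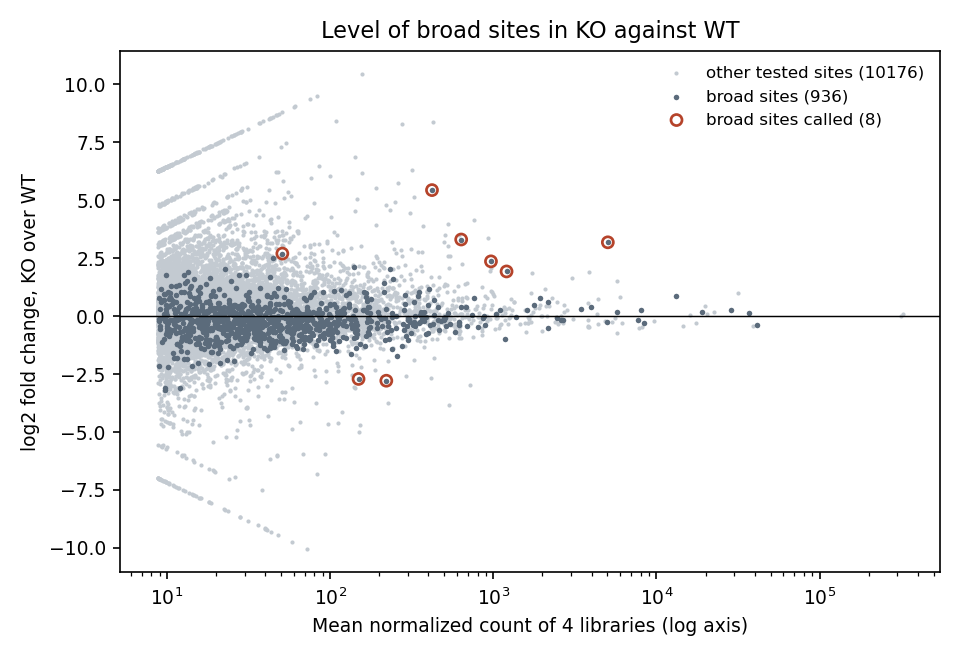
Mean normalized count (log axis) against the DESeq2 log2 fold change of KO over WT for the other tested sites (light), 936 broad sites (dark) and the 8 called broad sites (circled). The broad sites lie close to 0, with a median of -0.22, and the called ones run from -2.79 to 5.43.

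Of the sites called higher, those of Qser1, Rab7, Zbtb20 and Zfp367 were higher in both KO animals by a clear margin. Qser1, which encodes a chromatin protein that protects DNA from methylation, had 1843 and 2350 reads in KO against 289 and 207 in WT at chr2:104756919-104757141. Its mean was 1619 ± 579 (SD, n = 2) normalized counts in KO against 316 ± 108 in WT. The log2 fold change was 2.36 (SE 0.59, adjusted p 0.00815 with DESeq2). The site of Rab7, a small GTPase of late endosomes and lysosomes, lay at chr6:87999463-87999786 and had 3659 and 1639 reads in KO against 368 and 438 in WT. Its log2 fold change was 1.92 (SE 0.57, adjusted p 0.0381 with DESeq2). In both genes the broad site held most reads of the gene in every library, from 76.7% to 98.0% in Qser1 and from 77.3% to 95.4% in Rab7.

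Zbtb20, which encodes a zinc finger repressor of transcription, had 2849 and 507 reads in KO against 84 and 104 in WT at chr16:43638021-43638201. The log2 fold change was 3.30 (SE 0.71, adjusted p 0.000668 with DESeq2), and it was 1.94 without KO replicate 1, with an adjusted p of 0.888. This site lay beyond the annotated 3′ end of Zbtb20 in the gene model used here. Zfp367, a zinc finger transcription factor, had 161 and 82 reads in KO against 9 and 13 in WT at a site of 101 bp (chr13:64133877-64133977), with a log2 fold change of 2.69 (SE 0.86, adjusted p 0.0724 with DESeq2). When 1 library was left out, the log2 fold change ran from 2.41 to 2.93 in Zfp367, from 1.53 to 2.24 in Rab7 and from 1.92 to 2.76 in Qser1. The calls of Zfp367 and Rab7 were lost without any of the 4 libraries, while that of Qser1 was kept only without WT replicate 1.

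In the other sites called higher, 1 library held nearly all of the reads. The site of 2610008E11Rik (chr10:79064843-79065014) had 50 and 1868 reads in KO against 11 and 20 in WT. Its log2 fold change of 5.43 (SE 1.07, adjusted p 0.000120 with DESeq2) became 0.76 without KO replicate 2. Mylk4, a kinase of myosin light chains, had 2059 and 19446 reads in KO against 824 and 764 in WT at chr13:32703747-32704181, a site of 435 bp. Its log2 fold change was 3.18 (SE 0.84, adjusted p 0.0137 with DESeq2), and without KO replicate 2 it was 0.42. After scaling, KO replicate 1 of Mylk4 (1351 normalized counts) was only slightly above the WT libraries (1118 and 882). The call of Mylk4 was also lost without WT replicate 2, and that of 2610008E11Rik without either WT library.

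Both sites called lower rested on WT replicate 1. Usp14, a deubiquitinating enzyme of the proteasome, had 86 and 64 reads in KO against 516 and 62 in WT at chr18:9995921-9996076. Its log2 fold change of -2.79 (SE 0.86, adjusted p 0.0591 with DESeq2) became -0.36 without WT replicate 1. A site of 131 bp in the 3′ part of Malat1 (chr19:5798039-5798169) had 69 and 39 reads in KO against 346 and 42 in WT. Its log2 fold change was -2.71 (SE 0.89, adjusted p 0.0854 with DESeq2) and became -0.30 without that library. Neither site was called without a KO library, and both remained called without WT replicate 2. The edgeR adjusted p of the 8 called sites lay between 0.122 and 0.285.

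**Figure D5:**
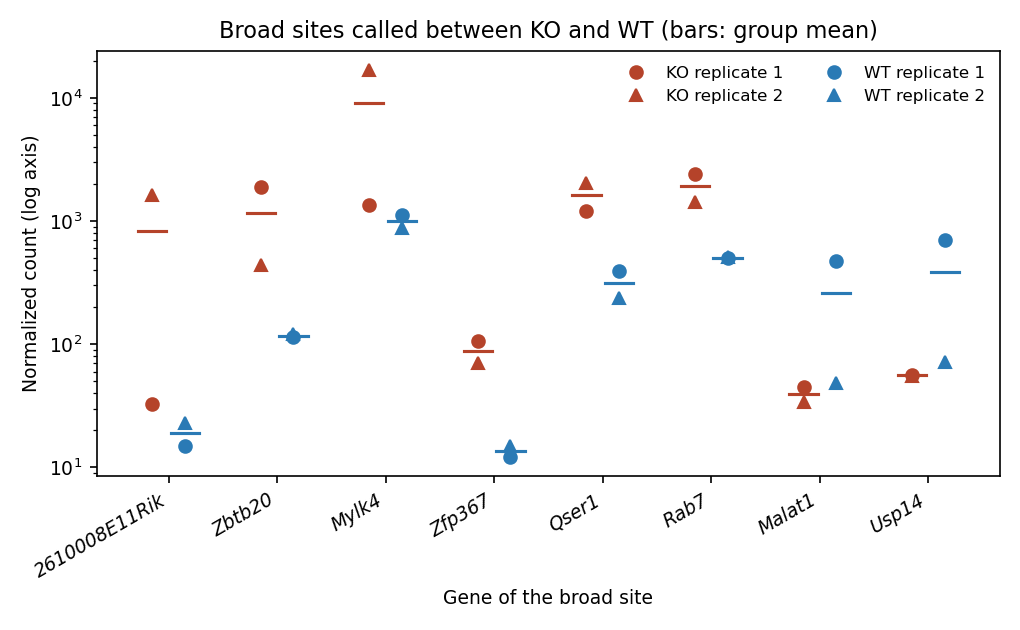
Normalized counts (log axis) of the 8 called broad sites in each library, with KO in red, WT in blue, replicate 1 as circles, replicate 2 as triangles and group means as bars. Qser1, Rab7, Zbtb20 and Zfp367 have both KO libraries well above both WT libraries, whereas a single library sets the mean in 2610008E11Rik, Mylk4, Malat1 and Usp14.

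Whether a broad site took a different share of the reads of its gene was tested with diffSpliceDGE. Of 758 broad sites in 462 genes that could be tested, 2 were called at an adjusted p under 0.1, against 0.612% of 8001 sites in all. Both calls were lost with the replicate block, with all sites of 10 or more reads, and without KO replicate 1, KO replicate 2 or WT replicate 1, and 1 site was called without WT replicate 2. The site of Malat1 called lower above held 0.336% and 0.218% of the reads of Malat1 in KO against 3.64% and 0.303% in WT (diffSpliceDGE adjusted p 0.0986), again with a high value in WT replicate 1 only. A site of 128 bp in Pafah1b1, which encodes the dynein regulator LIS1, lay at chr11:74677381-74677508. It had 13 and 11 reads in KO against 13 and 21 in WT, which was 0.618% and 0.978% of the reads of the gene in KO against 8.23% and 9.50% in WT (diffSpliceDGE adjusted p 0.0986). Its own level was not called (log2 fold change -1.22, SE 1.25), and the other sites of Pafah1b1 together held more reads in both KO libraries.

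The next sites by p-value did not pass. Zbtb20 held 35.1% and 15.3% of the reads of its gene in KO against 4.18% and 4.19% in WT at the site described above (diffSpliceDGE adjusted p 0.259). Of the other sites of Mylk4, that of 151 bp held 1.23% and 0.300% in KO against 2.51% and 3.98% in WT (adjusted p 0.167), and that of 116 bp held 0.794% and 0.0858% in KO against 0.972% and 0.978% in WT (adjusted p 0.403). Both had few reads beside the called site of the gene.

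Gene lists were used to describe the broad sites by function. The sarcomere list had 149 broad sites in 27 of 68 genes, of which 141 were tested. The called site of Mylk4 was the only call, 78 sites were higher and 63 lower in KO, and the median log2 fold change was 0.10. The direction of this median turned to -0.08 when libraries were scaled by totals and to -0.04 without WT replicate 1. Over the 89 tested sites of Ttn the median was 0.13, or -0.06 when scaled by totals, and 0 passed the test with DESeq2 or at an unadjusted p under 0.05. Cmya5, a costamere protein of striated muscle also called myospryn, had 10 of 10 tested sites higher in KO, with a median log2 fold change of 0.41 and 6 of 10 higher when scaled by totals. Without WT replicate 1 its median was 0.08, and without KO replicate 2 it was 0.15. In Xirp2, an actin-binding repeat protein, the median was -0.11, and without KO replicate 1 it was 0.05. Neb had 4 of 5 tested sites higher, with a median of 1.21, which was 0.41 without WT replicate 1 and 3.06 without WT replicate 2.

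Cytoskeletal giants and membrane scaffolds had 62 broad sites in 15 of 45 genes, and 0 of 61 tested sites passed the DESeq2 test, with 1 at an unadjusted p under 0.05. Their median log2 fold change was -0.49, and it was -0.27 without WT replicate 2. Ahnak held 29 of the 61 tested sites, and the 32 sites of the other genes had a median of 0.07, with 19 higher and 13 lower. The 10 tested sites of Cmya5, all higher in KO, were among these 32, so the balance also rested in part on a single gene. The median of these 32 was -0.12 when scaled by totals, -0.23 without KO replicate 2 and -0.13 without WT replicate 1. In Ahnak the most read site (chr19:9003052-9003535) had 1341 and 836 reads in KO against 1085 and 1443 in WT, and its log2 fold change was -0.97 (SE 0.54, adjusted p 0.623 with DESeq2). Summed over its 29 broad sites, Ahnak had 3260 and 2870 normalized counts in KO against 4579 and 6224 in WT, so the groups did not overlap. Of the 29 sites 28 were lower in KO, and in 23 both KO libraries were below both WT libraries, which was so for 17.4% of all tested sites. Broad sites as a set were lower in KO more often than all tested sites, and their own share is not given here. The median of the 29 sites was -0.88, and it was -0.45 without WT replicate 2. These sites lie in the same message and are not independent of each other. The share of the reads of Ahnak that the broad sites held was 82.8% ± 2.46 in KO and 83.0% ± 1.66 in WT (SD, n = 2), so no difference in their use was detectable. Tuba4a, an α-tubulin, had 1650 and 1197 reads in KO against 632 and 1005 in WT, and Ank1, an ankyrin with a small muscle form in the sarcoplasmic reticulum, had 648 and 1755 in KO against 438 and 455 in WT.

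Genes of the extracellular matrix had 21 broad sites in 19 of 63 genes, and all 21 were tested. None was called by DESeq2 (0 of 21), and 2 had an unadjusted p under 0.05. The median log2 fold change was -0.86, with 20 sites lower in KO, and leaving out any single library gave 18 to 20 lower sites and medians from -0.58 to -1.05. In 13 of the 21 sites both KO libraries were below both WT libraries, against 17.4% of all tested sites. That share among the broad sites alone is not given here, and 35.0% of them were higher in KO against 53.5% of all tested sites. In either direction, the groups did not overlap in 38.7% of the tested broad sites. Sparc, a collagen-binding glycoprotein, had 180 and 141 reads in KO against 291 and 344 in WT at its most read broad site (chr11:55394788-55394986), with a log2 fold change of -1.72 (SE 0.59, adjusted p 0.103 with DESeq2). Its other broad site had 64 and 48 reads in KO against 68 and 86 in WT. Chad, a matrix protein of cartilage and tendon, had 331 and 120 reads in KO against 231 and 406 in WT, and Fmod, a collagen-binding proteoglycan, had 536 and 451 in KO against 446 and 454 in WT. The log2 fold changes of these sites of Chad and Fmod were -1.29 and -0.61.

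The summed level of fibroblast markers was lower in KO as well. The 12 markers of fibroblasts, of which 11 had reads in every library, took 0.323% and 0.296% of the reads outside mitochondrial and ribosomal RNA in KO against 0.467% and 0.484% in WT, while Postn was at 0. Of the 11 markers 8 are also on the matrix list. In 6 of the 11, among them Sparc, Fbn1, Col3a1 and Dcn, both KO libraries were below both WT libraries in normalized counts, while in 5, among them Col1a1, Col1a2 and Mfap5, the groups overlapped. The share of all genes with both KO libraries below was not computed, so whether 6 of 11 is unusual cannot be said. Fewer cells of a type and less RNA per cell cannot be told apart in whole muscle, and the part of fibroblasts in the matrix values was not tested. The 5 broad sites of fibroblast markers, which lie in Sparc, Col1a2, Fbn1 and Dcn, all had a log2 fold change below 0. All 5 are also counted in the matrix list. In Col1a2 and Dcn the groups overlapped, and Dcn had 7.88 and 7.77 normalized counts in KO against 0 and 20.8 in WT. Without KO replicate 2, and also without WT replicate 2, 4 of the 5 were lower.

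The list of glycolysis, glycogen and phosphocreatine genes had 15 broad sites in 9 of 51 genes, and 0 of 14 tested sites were called, with 0 at an unadjusted p under 0.05. The median log2 fold change was -0.51, and 11 sites were lower. The median was -0.25 without WT replicate 2. Ldha, the muscle-type subunit A of lactate dehydrogenase, had 622 and 642 reads in KO against 361 and 617 in WT at a site 135 bp from the 3′ end that held 98.2% to 98.6% of the reads of the gene. Ppp1r3c, which targets a phosphatase to glycogen, had 353 and 278 reads in KO against 250 and 387 in WT. In Pgam2, the muscle form of phosphoglycerate mutase, the broad site lay 223 bp from the annotated 5′ end and had 375 and 301 reads in KO against 209 and 342 in WT. The log2 fold changes of these sites of Ldha, Ppp1r3c and Pgam2 were -0.32, -0.74 and -0.42. For mitochondria and fatty acid oxidation there were 11 broad sites in 10 of 67 genes, with 0 of 9 tested sites called and 1 at an unadjusted p under 0.05, and a median of -0.15.

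Lpl, which encodes lipoprotein lipase, held a pair of broad sites near its 3′ end whose reads were split differently in 1 library. The upstream site had 621 and 244 reads in KO against 138 and 281 in WT, and the downstream site had 33 and 330 in KO against 161 and 337 in WT. In KO replicate 1 the downstream site held 3.58% of the reads of Lpl, against 38.7% to 43.8% in the other libraries. Mfn2, a GTPase of mitochondrial fusion, had 136 and 230 reads in KO against 44 and 66 in WT.

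Calcium handling and excitability genes had 28 broad sites in 18 of 47 genes, with 0 of 27 tested sites called, 0 at an unadjusted p under 0.05 and a median log2 fold change of -0.03. After Hrc and Clcn1, the most read was in Scn4b, a β subunit of voltage-gated sodium channels, with 560 and 869 reads in KO against 221 and 167 in WT (log2 fold change 1.18, SE 0.63, adjusted p 0.574 with DESeq2). The insulin, growth and kinase signalling list had 14 broad sites in 12 of 63 genes, and 0 of 13 tested sites were called, with 1 at an unadjusted p under 0.05 and a median of 0.17, with 9 of 13 sites higher, or 6 of 13 when scaled by totals. Mstn, which encodes the growth inhibitor myostatin, had 242 and 316 reads in KO against 60 and 112 in WT at a site 222 bp from the annotated 5′ end, with a log2 fold change of 1.03 (SE 0.67, adjusted p 0.779 with DESeq2). Lrrc8a, a subunit of volume-regulated anion channels, had 640 and 382 reads in KO against 155 and 160 in WT. In Cdc42ep3, an effector of the GTPase Cdc42, there were 236 and 334 reads in KO against 81 and 99 in WT.

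Transcription and chromatin genes held 27 broad sites in 18 of 88 genes. Of 26 tested sites, 3 were called higher and 0 lower by DESeq2, against 2.33% and 0.882% of all tested sites. The sites of Zbtb20 and Qser1 described above were among them, and edgeR called 0. The median log2 fold change of the list was -0.06. The most read was in Mef2c, a transcription factor of muscle differentiation, with 2384 and 8633 reads in KO against 3057 and 2409 in WT, where 1 KO library again stood above the rest. RNA binding, splicing and translation genes had 20 broad sites in 18 of 70 genes, and 0 of 19 tested sites were called, with 3 at an unadjusted p under 0.05 and a median of -0.33. Eif4a2, an RNA helicase of translation initiation, had 490 and 499 reads in KO against 340 and 435 in WT. Scaled, this was 322 and 431 normalized counts in KO against 461 and 502 in WT, a log2 fold change of -0.36. Rbm24, a splicing regulator of muscle, had 487 and 512 reads in KO against 202 and 377 in WT. Cnbp, a nucleic acid binding protein, had 512 and 395 in KO against 142 and 243 in WT. The log2 fold changes of these sites of Rbm24 and Cnbp were 0.10 and 0.52.

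Ubiquitin, autophagy and stress genes held 30 broad sites in 20 of 71 genes, with 1 of 29 tested sites called higher (Rab7) and 1 lower (Usp14), and a median log2 fold change of -0.30. Over all tested sites 2.33% were called higher and 0.882% lower. The medians of this list and of the calcium handling, mitochondrial, transcription and RNA binding lists changed sign when 1 library was left out, so none of them gave a stable direction. Naa50 was the most read of the ubiquitin list, and Hspb6, a small heat shock protein, had 687 and 608 reads in KO against 353 and 488 in WT. The log2 fold change of this site of Hspb6 was -0.10. The noncoding RNA list had 23 broad sites in 3 of 23 genes, namely Malat1, Neat1 and H19. Neat1, the RNA that builds paraspeckles, had 1082 and 949 reads in KO against 753 and 860 in WT at a site whose most read base lay 3 bp before the annotated 5′ end. All 7 broad sites of Neat1 were lower in KO, with a median of -0.48, and 2 of the 7 were higher without KO replicate 1. H19, an imprinted noncoding RNA, had 5 of 5 broad sites higher, with a median of 0.63, and 3 of 5 were higher without WT replicate 1. None of these sites of Neat1 and H19 was called by DESeq2, and 0 had an unadjusted p under 0.05.

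Fibre type markers had few broad sites. The slow fibre list had 6 in 4 of 12 genes and the fast fibre list 7 in 3 of 14 genes, with 0 called in either and 0 at an unadjusted p under 0.05. Myh7, the slow myosin heavy chain, had 10 and 25 reads in KO against 16 and 41 in WT, and Atp2a2, the slow calcium pump, had 25 and 33 in KO against 9 and 6 in WT. Myh4, the fast IIb myosin heavy chain, had 396 and 365 reads in KO against 106 and 121 in WT at a site that held only 0.557% to 1.48% of the reads of the gene. Myoz1, a Z-disc protein of fast fibres, had 143 and 113 in KO against 86 and 99 in WT, and Myh2, the fast IIa chain, had 52 and 69 in KO against 19 and 42 in WT. The log2 fold changes of these sites of Myoz1 and Myh2 were -0.27 and 0.33. Adipocyte markers had 4 broad sites with 0 called and 0 at an unadjusted p under 0.05, among them Scd1, a fatty acid desaturase, with 107 and 64 reads in KO against 86 and 106 in WT, and Lipe, the hormone-sensitive lipase, with 16 and 22 in KO against 3 and 10 in WT. All adipocyte markers together took 2.31% and 3.17% of the reads outside mitochondrial and ribosomal RNA in KO against 2.78% and 2.20% in WT, most of them in Car3. The skeletal muscle markers had 102 broad sites, 92 of them in Ttn, with 0 of 98 tested sites called and 0 at an unadjusted p under 0.05, and a median log2 fold change of 0.14 that was -0.05 when scaled by totals. Blood, Schwann cell and endothelial markers had 0 broad sites.

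Pseudogenes held 115 broad sites (11.6% of those with a gene model), against 5.96% of the narrower sites. After Gm4834 the most read were Gm10250, with 3621 and 2710 reads in KO against 1559 and 2544 in WT, and Mylf-ps, with 2830 and 1934 reads in KO against 1314 and 2854 in WT. Both sites were the only site of their gene and measured 437 and 471 bp. Their log2 fold changes were -0.10 and -0.53. Mylf-ps is a copy of a fast myosin light chain gene, and its parent gene was not identified here. Reads of a pseudogene and of its parent gene may have been assigned to either, so these values are uncertain. Together the broad pseudogene sites took 1.09% and 0.776% of all reads in KO against 1.51% and 0.979% in WT, and the groups overlapped.

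Replicates of some well-read broad sites stood far apart. Besides the called sites, Lonrf1 had 45 and 496 reads in KO against 60 and 21 in WT, and Actb, the cytoplasmic β-actin, had 1042 and 758 in KO against 1233 and 177 in WT. Both genes were picked out with their values known. A difference of more than 4-fold between the replicates was found in 3.69% of the broad sites in KO and in 7.37% in WT, against 11.1% and 16.4% of narrower transcript-contained sites with 68 or more reads.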

How the data were processed

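Total RNA of skeletal muscle was profiled by WTSS-seq in 2 KO and 2 WT animals, and the labels gave the group and replicate number of each library. The authors deposited raw counts of reads per clustered start site, with its strand, start, end, most read position, gene symbol and Cuffcompare class code. Reads are not described as carrying molecular identifiers, so PCR copies were counted. The mapping (TMAP) and the clustering of read ends within 24 nt were stated for the 3′ end libraries, and settings for the 5′ ends are not given in the sources used here. The submitters' processing notes name GRCm38.p5, and coordinates are 1-based in that build. The lowest total of a site was 10 reads, and the line of column totals was left out.

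Sites were compared with DESeq2 (version 1.42.0, R version 4.3.3, median-of-ratios size factors, Wald test, Benjamini-Hochberg adjusted p under 0.1 over 11112 sites). Independent filtering left out 31095 sites with a mean normalized count under 8.76. The alternative was edgeR (version 4.0.16) with its quasi-likelihood test. Use within the gene was tested with diffSpliceDGE of edgeR on sites that pass filterByExpr in 2173 genes. The main DESeq2, edgeR and diffSpliceDGE fits were run on simulated counts with large known changes. That check used a fixed spread between replicates, so it does not cover single libraries that stand far apart, as found here. Gene models (677 of 691 symbols matched, on GRCm38.p6, whose primary chromosomes are the same) and promoter windows are from RefSeq. Position was computed from the most read base, and replicate folds used a pseudocount of 0.5. Mitochondrial RNA was set apart by chromosome and ribosomal RNA by gene symbol, so any ribosomal reads under another symbol were kept. No genome sequence was used here.

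Sites were named by a rule: the 10 most read, the 5 widest, up to 8 called sites per direction, genes with 5 or more broad sites, the 5 smallest p-values for use, the 3 most read per gene list, and 2 each at 100 and 99 bp. The members, the 19 lists and the tests were chosen with earlier results of these data known. Lars2 was taken off the noncoding RNA list after the files were read, since it is a protein coding gene.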

Additional observations from a re-analysis of the deposited data

How the results depend on the processing

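Against 6 broad sites higher and 2 lower in KO, edgeR called 0 and 0, and with independent filtering off 0 were lower. At an adjusted p under 0.05, 0 were lower. Leaving out each library in turn gave 1 to 4 higher and 0 to 2 lower sites. Each of the 8 called sites kept its direction under all of these settings, 8 kept the call with TMM factors, and 7 did when scaled by totals. That scaling moved log2 fold changes of all sites by a median of -0.18 and the median of the broad sites to -0.41. Deviations of same-numbered libraries correlated at 0.07, both over 9857 sites and over the 1004 broad sites. With 2 libraries per group this cannot show whether same-numbered libraries shared more than a number, and the labels do not say. With the replicate block, 4 sites were higher and 0 lower, and 0 had changed use. For changed use, the count of 2 became 0 with sites of 10 or more reads and at an adjusted p under 0.05, and 0 to 1 without each library. Broad sites took 23.5% (KO) and 25.4% (WT) of reads outside mitochondrial and ribosomal RNA, against 14.8% and 15.4% of all reads. A width of 50 bp or more gave 3593 sites and 150 bp or more gave 439, with median positions along the gene of 82.0% and 82.6%. The cause of these changes was not tested. With 2 libraries per group and a median of 22 to 42 reads per broad site and library, small differences were not detectable.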
